A study of Mus musculus with 16 samples.

Results

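The p53 target genes described here are 31 mouse genes that the transcription factor p53 is known to switch on, picked by symbol from a written list and all found among the 23337 gene symbols counted. They act as brakes on the cell cycle and growth, as regulators of p53 itself, as death factors and death receptors, in DNA repair and nucleotide supply, and in the response to stress and nutrients. Of the 31 genes, 30 passed the filter on low counts and were tested among 12952 genes, and Dram1, an autophagy regulator, did not pass it. The filter can admit a gene through the group where it is high, so counts below are over the 30 tested genes and not over all 31.

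The RNA came from CD4+ T cells of C57BL/6 mice with the genotype Dgcr8 f/f, Tbet-/- and CD4-cre, taken from spleen and lymph nodes and sorted for the RosaYFP reporter of Cre activity. Dgcr8 is needed to process most microRNAs, so all 4 groups shared a background in which T cells lack most of their own microRNAs, and all groups also lacked the transcription factor T-bet. Antibodies to CD3 and CD28 were used to stimulate the cells for 3 days with 10 U/ml IL-4 and rested for 2 days in 20 U/ml IL-2, and synthetic microRNA mimics at 500 nM were electroporated on days 1 and 4. Besides the control mimic there were groups given miR-23a, miR-24 or miR-27a, each of the 4 groups with 4 libraries, numbered 1 to 4. The study's stated design sets each mimic against the control mimic, and its title concerns the effect of miR-24 and miR-27 on cytokines of T helper 2 cells. The labels do not say which mouse or culture a library came from, so p-values measure the spread between these libraries.

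In unstressed cells p53 is held low, because the ubiquitin ligase Mdm2 marks it for breakdown and Mdm2 is itself a p53 target. DNA damage, nutrient shortage and oncogenic signals stabilise p53, which binds response elements near its targets and can halt division through Cdkn1a or start cell death through Bax, Bbc3 and Fas. In activated T cells, Fas is also the receptor through which repeatedly stimulated cells are removed. A microRNA acts on messenger RNAs by pairing its seed, bases 2 to 8, with sites that lie mostly in the 3′ UTR.

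The mature sequences of the 3 mimics, from RefSeq (GRCm38.p6), are shown because the sites counted below follow from their seeds, in capitals. The labels do not give the arm of each mimic, and the 3p arm is taken here. Mir23a, Mir27a and Mir24-2 lie on chromosome 8 and Mir24-1 on chromosome 13.
miR-23a-3p: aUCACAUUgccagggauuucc
miR-24-3p: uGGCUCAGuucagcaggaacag
miR-27a-3p: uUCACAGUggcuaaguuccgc
The 3 seeds differ, and no pair of them is the same, so each mimic has sites of its own: the full 8-base site is AATGTGAA for miR-23a, CTGAGCCA for miR-24 and ACTGTGAA for miR-27a. Full sites in 4 of the members that passed a test are shown next as examples. Plk2 and Zmat3, which also passed a test, hold full sites that are not printed. The site is in capitals, with the flanking bases of the transcript strand (GRCm38, GENCODE annotation).
Ccng1, miR-27a site, chr11:40749533-40749562, minus strand: tgtgaaataaaACTGTGAAccttcattcta
Ccng1, miR-23a site, chr11:40749546-40749575, minus strand: ctaaagacataAATGTGAAataaaactgtg
Btg2, miR-27a site, chr1:134076979-134077008, minus strand: caaggttagcaACTGTGAAtgagaggggtc
Fas, miR-23a site, chr19:34327571-34327600, plus strand: aatttgtattaAATGTGAAgtggaatctgc
Eda2r, miR-24 site, chrX:97334876-97334905, minus strand: atcaaatgtgtCTGAGCCAaggtttagacc
The 2 sites in Ccng1 start at positions 1304 and 1317 of a 3′ UTR of 2316 bases, so their printed stretches overlap. A match is a description of the letters and not evidence of pairing in these cells.

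Gene reads ranged from 2120408 to 13714841 in 15 libraries, whereas control replicate 1 held 51474, with 7292 genes detected against 13400 to 15847 in the others. In that library 1 read is worth 16.3 CPM (reads per unit of library size, with sizes scaled by TMM), so its values for genes of low level rest on 0 to a few reads. The ribosomal repeat gene Rn45s took 0.30% to 19.1% of reads. The summed level of 6 T cell markers (Cd3e, Cd3d, Cd3g, Cd4, Cd28, Lck) was 3109 to 4552 CPM in control (3787 to 4552 without replicate 1), 3257 to 4144 with miR-23a, 2479 to 3220 with miR-24 and 2621 to 3155 with miR-27a. The summed markers of B, myeloid, dendritic, CD8 and red cells reached at most 18.1, 22.2, 18.0, 35.7 and 8.88 CPM, and those of NK cells and granulocytes at most 0.199 and 0.228 CPM. All 3 markers of NK cells and all 3 of granulocytes were at 0 in every control and every miR-27a library. In edgeR with replicate number as a block, 4 of the 6 T cell markers lay above 0 with miR-27a against control. The other 2 lay below 0, and the median log2 fold change was 0.13. With miR-24 2 lay above 0 and 4 below (median -0.49). Cd28 and Lck were called with miR-27a, 1 higher and 1 lower, where 3.07% of all genes were called. With miR-24 0 were called, where 4.56% of all genes were, although 5 of 6 had an unadjusted p under 0.05 (20.3% of all genes). Between mimics, Cd4 and Lck were called lower with miR-24 relative to miR-23a (5.38% of all genes called). Cd28 was called lower with miR-27a relative to miR-23a (2.95%). Relative to miR-24, miR-27a gave 4 calls (Cd28, Cd3g, Cd4 and Lck), 3 higher and 1 lower (4.42%). Without the block 0 of the 6 markers were called in any comparison. The part of the lower T cell marker sums in the results below was not tested.

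Single p53 target genes were called between groups in both directions, and only with the replicate number in the model. The list as a whole is described below without a test. In a test of any difference among the 4 groups with the replicate number as a block, 8 of 30 members passed an adjusted p of 0.05 (edgeR quasi-likelihood test, Benjamini-Hochberg over all genes), where 9.68% of all genes did. They were Eda2r, Btg2, Slc19a2, Fas, Ccng1, Aen, Plk2 and Ei24, that is a pair of death receptors, 3 brakes, a pair of death factors and a vitamin transporter. Without the block 0 of 30 members passed, against 1.94% of all genes, with 11 members at an unadjusted p under 0.05 (17.1% of all genes) and the lowest adjusted p at 0.107 (Aen). In bulk RNA, fewer cells of a type and less RNA per cell cannot be told apart.

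Against the control mimic, the calls were few and spread over the roles. Cdkn1a and Eda2r rose and Ccng1 fell with miR-27a, which is 3 of 30 members where 3.07% of all genes were called. Fas rose with miR-24, which is 1 of 30 where 4.56% of all genes were called. With miR-23a 0 of 30 passed in edgeR, where 0.425% of all genes did, although 14 of 30 had an unadjusted p under 0.05, against 17% of all genes. DESeq2 with the block called 5 of 30 (Aen, Cdkn1a, Ei24, Phlda3 and Plk2), where it called 364 of the 12952 genes. The 3 comparisons share the 4 control libraries, so they are not independent of each other.

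Between mimics, 3 members passed with miR-24 relative to miR-23a, where 5.38% of all genes did, and all 3 fell (Btg2, Zmat3 and Slc19a2), where 2.73% of all genes fell. With miR-27a relative to miR-23a, Btg2 fell and Eda2r rose, where 2.95% of genes were called. With miR-27a relative to miR-24, Fas fell while Eda2r and Slc19a2 rose, where 4.42% of genes were called. Every one of these calls was lost in the fit without the replicate block, in which 0 of 30 members passed in each of the 6 comparisons. The share of all genes called without the block was 0.131% for miR-23a, 0.849% for miR-24 and 0.17% for miR-27a against control, and 1.1%, 0.548% and 0.88% for miR-24 against miR-23a, miR-27a against miR-23a and miR-27a against miR-24. Same-numbered libraries deviated together in all 4 numbers for control with miR-27a and for miR-23a with either other mimic. They did so in 3 of 4 for the remaining pairs of groups. The rule asked for all 4, so control did not count as paired with miR-23a or miR-24, nor miR-27a with miR-24. The calls for miR-24 against control and miR-27a against miR-24 thus rest on a block between groups that failed this rule. The lowest adjusted p without the block was 0.255 for miR-23a, 0.166 for miR-24 and 0.130 for miR-27a against control, and 0.169, 0.160 and 0.136 for the comparisons between mimics in the same order. The members with an unadjusted p under 0.05 in that fit numbered 8, 4, 9, 10, 5 and 4 in the same order, where 11.2%, 14.2%, 14.3%, 12.2%, 10.4% and 13.3% of all genes had one.

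**Figure D1:**
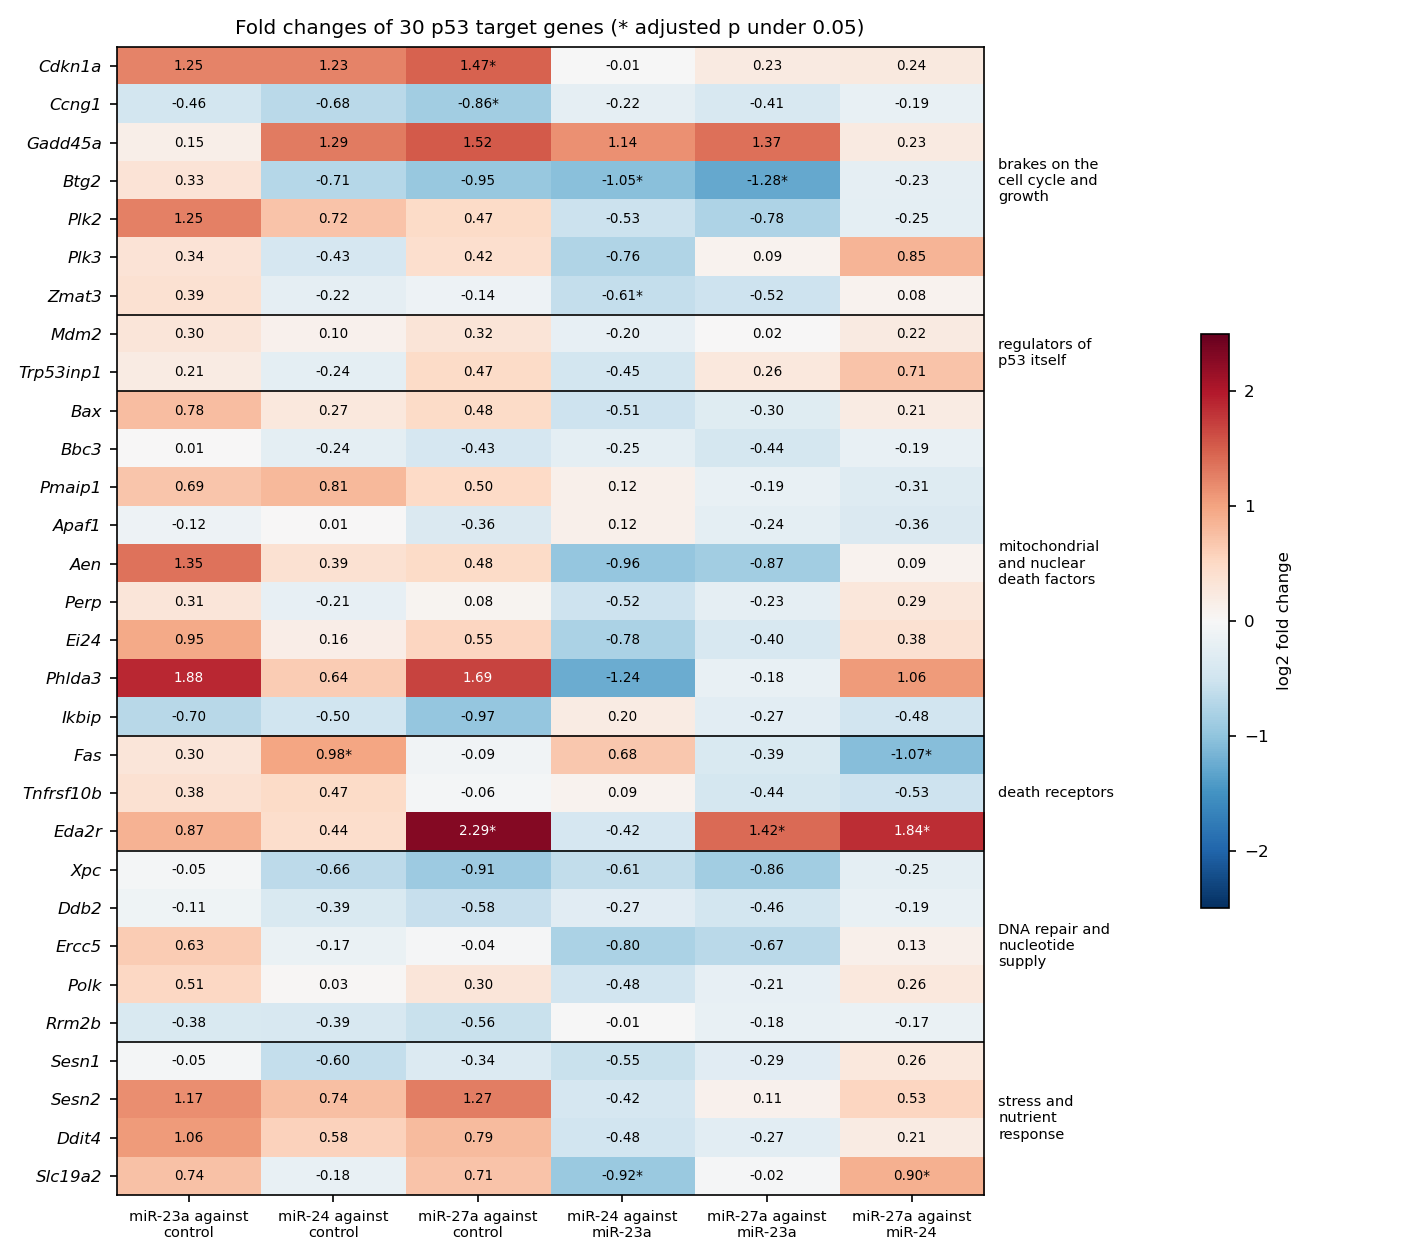
Log2 fold change (colour and number) of the 30 tested p53 target genes in the 6 comparisons, ordered by role, with replicate number as a block in the model; an asterisk marks an adjusted p under 0.05. The columns against control hold 4 asterisks and the columns between mimics hold 8, Eda2r reaches 2.29 with miR-27a, and most values of the miR-24 against miR-23a column are below 0.

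As a list, the members lay slightly above 0 with miR-23a and miR-27a and near 0 with miR-24. The median log2 fold change of the 30 members was 0.36 with miR-23a, with 23 above 0, while the median of all genes was 0.04 and 52.9% of them lay above 0. With miR-24 the members' median was 0.02, with 16 above 0, beside 0.04 and 53.1% for all genes. With miR-27a it was 0.31, with 17 above 0, beside 0.02 and 51.4%. Setting miR-24 against miR-23a gave a median of -0.47 with 24 of 30 members below 0, where all genes had a median of 0.01 and 50.9% above 0. For miR-27a against miR-23a the median was -0.27 with 23 below 0, beside -0.03 and 47.2% above 0 for all genes, and for miR-27a against miR-24 it was 0.17 with 18 above 0, beside -0.03 and 47.8%.

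Per kilobase of annotated exon, Ccng1 had the highest level of the 31 genes in control at 384 ± 57.7 CPM per kb (SD, n = 3, without replicate 1). Mdm2 followed at 63.2 ± 9.83 and Cdkn1a at 58.4 ± 24.8, which do not differ beyond their spread. Eda2r (0.692), Gadd45a (0.632) and Dram1 (0.149) stood lowest on this scale.

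Among the brakes on cell cycle and growth, Cdkn1a, which encodes the cyclin-dependent kinase inhibitor p21, rose with miR-27a (17:29090976-29100727, GRCm38). In replicates 1 to 4 it stood at 97.7, 167, 309 and 147 CPM in control and at 446, 464, 636 and 395 CPM with miR-27a. Every miR-27a library lay above every control library, and miR-27a was higher in 4 of 4 replicate numbers. The log2 fold change was 1.47 ± 0.37 (SE) with an adjusted p of 0.0423 in edgeR, and 0.212 without the block. Leaving out control replicate 1, 3 or 4, miR-24 replicate 2 or 3, or miR-27a replicate 1, 2 or 3 moved the adjusted p to between 0.0518 and 0.162. The call was also lost without the filter on low counts, in limma with sample weights and without the libraries numbered 1.

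Cdkn1a was also higher in 4 of 4 numbers with the other mimics, without passing the test. It stood at 392, 219, 468 and 686 CPM with miR-23a and at 155, 244, 758 and 799 CPM with miR-24. These libraries overlap the control range, and the miR-24 libraries fall into a low pair and a high pair. The log2 fold changes were 1.25 ± 0.38 (adjusted p = 0.140 in edgeR) and 1.23 ± 0.37 (adjusted p = 0.0705), close to that of miR-27a, and the differences among the 3 mimics were at most 0.24 in log2 fold change. Control replicate 1 held 6 reads of Cdkn1a, and the control mean was 180.1 ± 90.6 CPM (SD, n = 4) with it and 208 ± 88.2 (n = 3) without it.

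Ccng1, which encodes cyclin G1, a p53 target that recruits a phosphatase to Mdm2, fell with miR-27a (11:40748552-40755311). The control libraries stood at 977, 1135, 1539 and 1373 CPM and the miR-27a libraries at 441, 597, 824 and 951 CPM. All 4 miR-27a libraries lay below all 4 controls, a log2 fold change of -0.86 ± 0.20 with an adjusted p of 0.0250 in edgeR and 0.130 without the block. The call was lost without control replicate 3 or 4 or miR-27a replicate 1, 2 or 3, with adjusted p between 0.0621 and 0.134.

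With miR-24 Ccng1 stood at 868, 729.5, 754 and 698 CPM, all below the controls as for 2.74% of all genes, and with miR-23a at 665, 936, 923 and 1150.3 CPM, which overlaps them. The log2 fold changes were -0.68 ± 0.20 (adjusted p = 0.0587 in edgeR, 0.166 without the block) and -0.46 ± 0.20 (adjusted p = 0.253). Over the 4 groups Ccng1 passed (adjusted p = 0.0308 in edgeR, 0.144 without the block). That call was lost without control replicate 1, 3 or 4, miR-24 replicate 2 or 3, or miR-27a replicate 1, 2 or 3, with adjusted p between 0.0587 and 0.122. Its 3′ UTR holds 1 full site of miR-27a and 1 of miR-23a, printed above, and none of miR-24.

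Btg2, an antiproliferative cofactor of messenger RNA deadenylation, was lower with miR-24 and with miR-27a than with miR-23a (1:134075170-134079120). With miR-23a it stood at 99.1, 61.9, 156 and 107 CPM, with miR-24 at 37.4, 36.1, 84.1 and 51.2 CPM, and with miR-27a at 43.9, 51.7, 62.6 and 21.6 CPM. The control libraries, at 65.1, 110.4, 101 and 52.1 CPM, overlap all 3 mimics, and miR-23a replicate 2 lies within the range of both other mimics. Btg2 fell with miR-24 relative to miR-23a by 1.05 ± 0.27 on the log2 scale (adjusted p = 0.0310 in edgeR, 0.196 without the block). It fell with miR-27a relative to miR-23a by 1.28 ± 0.28 (adjusted p = 0.0169, 0.160 without the block).

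The first of these Btg2 calls was lost without miR-23a replicate 1, 3 or 4 or miR-24 replicate 1, 2 or 3 (adjusted p 0.0717 to 0.164). The other was lost without miR-23a replicate 1, 3 or 4 or miR-27a replicate 3 or 4 (0.0551 to 0.0898). Against control the log2 fold change of Btg2 was 0.33 with miR-23a, -0.71 with miR-24 (adjusted p = 0.177 in edgeR) and -0.95 ± 0.30 with miR-27a (adjusted p = 0.0815). Over the 4 groups it passed at 0.0137 (0.137 without the block), and it stood at 0.0501 without miR-23a replicate 1.

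Zmat3, a zinc finger protein that binds RNA and restrains growth, fell with miR-24 relative to miR-23a. It stood at 311, 323, 393 and 359 CPM with miR-24 and at 526, 467, 599.9 and 509 CPM with miR-23a, with no overlap between the groups, as for 4.78% of all genes in this direction. The log2 fold change was -0.61 ± 0.17 (adjusted p = 0.0385 in edgeR, 0.171 without the block), and the call was kept in 5 of 16 fits that left out 1 library. In the other 11 fits, which left out control replicate 3, any miR-23a or miR-24 library, or miR-27a replicate 2 or 3, the adjusted p lay between 0.0517 and 0.148. Control at 407, 349, 468 and 414 CPM and miR-27a at 249.7, 319, 451 and 470.1 CPM had means between those of these groups and overlapped the miR-24 libraries, and the log2 fold changes against control were 0.39, -0.22 and -0.14 for miR-23a, miR-24 and miR-27a.

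Plk2, a polo-like kinase induced by stress, passed the 4-group test with its highest level under miR-23a. The control libraries stood at 0, 7.06, 17.03 and 9.91 CPM, with no read in control replicate 1, and the miR-23a libraries at 23.7, 18.0, 26.6 and 22.8 CPM. All miR-23a libraries lay above all controls, 1 of the 2 members for which this held (the other was Ei24), where 3.18% of all genes did so. The log2 fold change was 1.25 ± 0.30 (adjusted p = 0.0684 in edgeR, 0.420 without the block).

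With miR-24 Plk2 stood at 12.03, 13.2, 31.5 and 12.7 CPM and with miR-27a at 8.39, 8.92, 30.8 and 12.1 CPM. Replicate 3 was far above the other 3 libraries in both groups. The 4-group adjusted p was 0.0414 in edgeR and 0.473 without the block, and it lay between 0.0504 and 0.125 in the 11 of 16 fits that lost the call, which left out any control library, miR-23a replicate 1, 2 or 4, miR-24 replicate 2 or 3, or miR-27a replicate 1 or 2. The remaining brakes, the damage-response gene Gadd45a at group means of 0.836 to 2.90 CPM and the kinase Plk3 at 15.8 to 28.1 CPM, passed no test between groups.

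**Figure D2:**
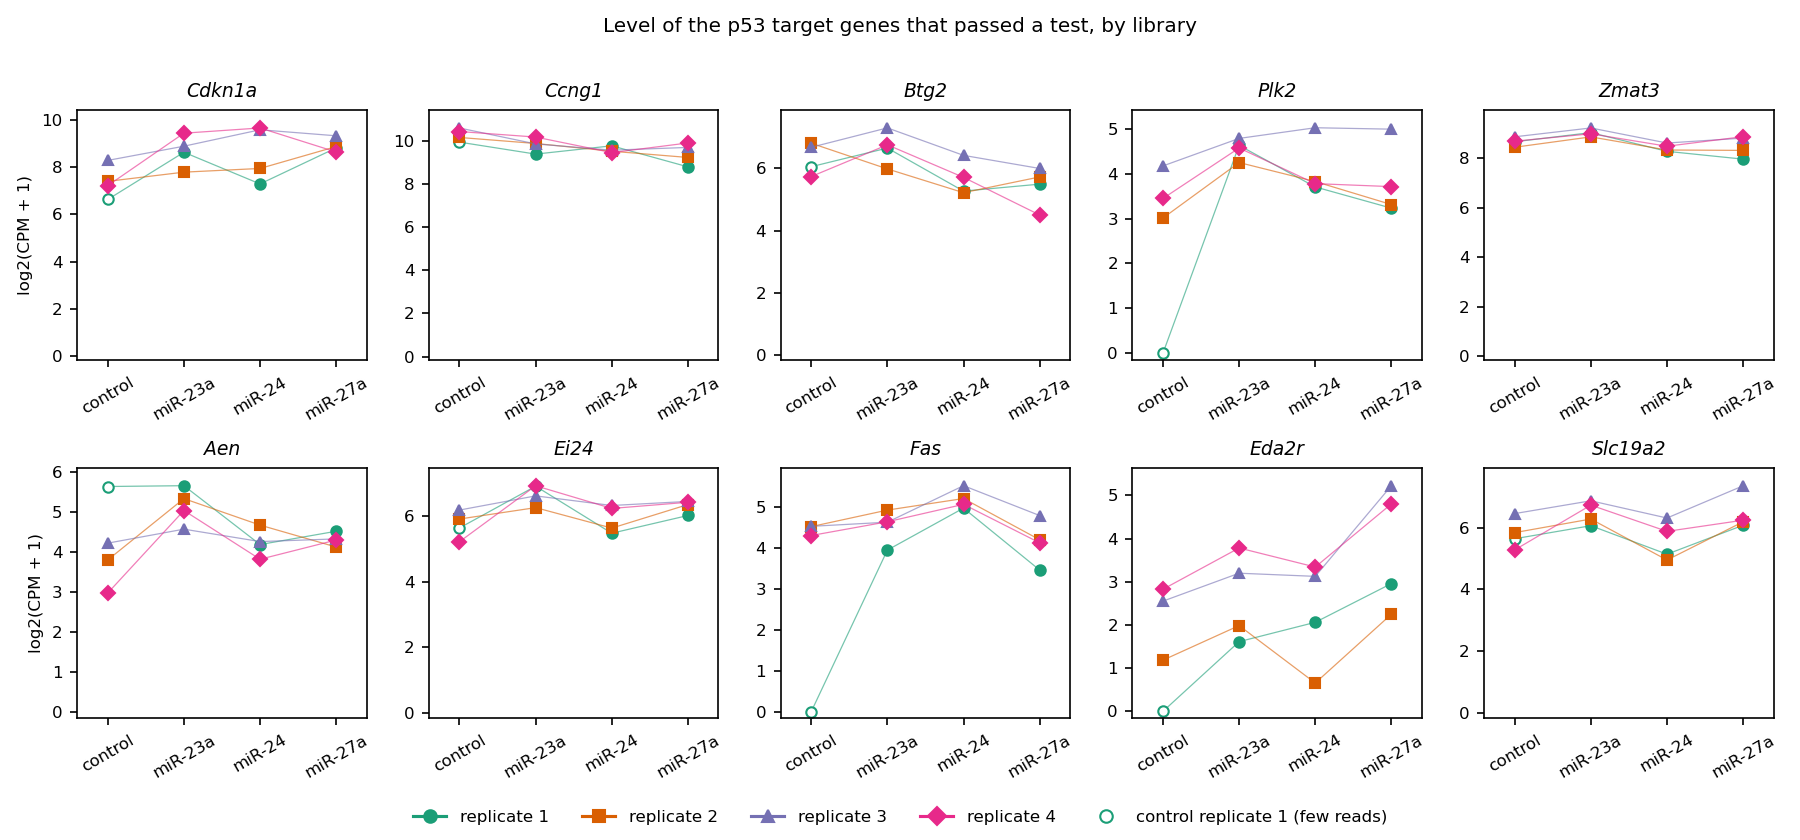
Level of the 10 members that passed a test, as log2(CPM + 1) on the vertical axis, in each library of the 4 mimic groups; lines join libraries of the same replicate number, and the open circle is control replicate 1. In all 4 miR-27a libraries Cdkn1a lies above and Ccng1 below every control library, and Eda2r is highest with miR-27a within every replicate number.

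The regulators of p53 itself did not pass a test between groups in the edgeR fit of all libraries. Trp53inp1 was called by limma with sample weights for miR-27a against miR-24, and in edgeR with only the libraries of both groups for miR-27a against control. Mdm2, the ubiquitin ligase that limits p53, stood at 147, 303, 378 and 283 CPM in control, at 336, 313, 389 and 363 CPM with miR-23a and at 287, 257, 356 and 329 CPM with miR-24. With miR-27a it stood at 255, 304, 512 and 392 CPM. The groups overlap, and the lowest value, in control replicate 1, rests on 9 reads. The log2 fold changes of Mdm2 were 0.30 ± 0.19, 0.10 ± 0.19 and 0.32 ± 0.19 for miR-23a, miR-24 and miR-27a (adjusted p = 0.412, 0.808 and 0.315 in edgeR). Trp53inp1, a stress protein that enhances p53 activity, had group means of 277, 319, 229 and 384 CPM in control, miR-23a, miR-24 and miR-27a libraries.

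Among the death factors, Aen and Ei24 passed the 4-group test, both with their highest mean under miR-23a. Aen, a nuclease that p53 induces during apoptosis, stood at 48.8, 12.9, 17.7 and 6.86 CPM in control and at 49.5, 39.4, 22.8 and 31.9 CPM with miR-23a. The high control value is that of replicate 1 and rests on 3 reads; the other 3 controls lay below all miR-23a libraries. The log2 fold change was 1.35 ± 0.33 (adjusted p = 0.0739 in edgeR, 0.255 without the block).

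With miR-24 Aen stood at 17.2, 24.5, 18.2 and 13.1 CPM and with miR-27a at 21.9, 16.4, 19.1 and 18.7 CPM, and every miR-27a library lay below every miR-23a library, as for 3.06% of all genes. The 4-group adjusted p of Aen was 0.0314 in edgeR and 0.107 without the block. It lay between 0.0527 and 0.127 without control replicate 4, miR-23a replicate 1, 2 or 4, miR-24 replicate 3, or miR-27a replicate 1, 2 or 3.

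Ei24, a membrane protein induced by p53 during cell death, stood at 48.8, 59.2, 71.8 and 36.3 CPM in control and at 119.5, 75.6, 97.2 and 121 CPM with miR-23a. All miR-23a libraries lay above all controls, with a log2 fold change of 0.95 ± 0.25 (adjusted p = 0.107 in edgeR). With miR-24 it stood at 43.6, 48.7, 79.1 and 74.3 CPM and with miR-27a at 63.9, 80.8, 86.4 and 84.8 CPM, both overlapping control. The 4-group adjusted p was 0.0455 in edgeR and 0.148 without the block. Ei24 kept that call in 4 of 16 fits, those without control replicate 2, miR-23a replicate 2, miR-24 replicate 4 or miR-27a replicate 4, and the other 12 gave 0.0528 to 0.137. GENCODE places Gm26787 antisense over part of Ei24, and without a known strand setting their reads cannot be told apart.

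Bax and Bbc3, the core mitochondrial executors of p53-driven death, passed no test between groups. Bax stood at 32.6, 20.7, 34.1 and 20.4 CPM in control and at 88.8, 25.3, 41.6 and 38.9 CPM with miR-23a, a log2 fold change of 0.78 ± 0.31 (adjusted p = 0.224 in edgeR). With miR-24 Bax stood at 37.1, 27.1, 31.5 and 32.5 CPM and with miR-27a at 32.9, 45.6, 50.1 and 21.4 CPM. The groups overlap, and the high miR-23a mean of Bax comes with 1 library, replicate 1.

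Bbc3, also called Puma, stood at 16.3, 5.39, 10.3 and 4.72 CPM in control and at 29.7, 4.33, 4.84 and 5.27 CPM with miR-23a. It stood at 9.02, 7.57, 7.64 and 4.17 CPM with miR-24 and at 7.74, 6.58, 4.79 and 5.81 CPM with miR-27a. The groups overlap throughout, the control replicate 1 value is 1 read, and the adjusted p against control lay between 0.577 and 0.995 in edgeR.

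The other death factors passed no test between groups in the edgeR fit of all libraries. With only the libraries of both groups, edgeR called Phlda3 for miR-27a against control. DESeq2 with the block called Phlda3 with miR-23a and with miR-27a against control, Pmaip1 with miR-24 against control, and Apaf1 for miR-27a against miR-24. Phlda3, an inhibitor of Akt signalling, had the largest log2 fold change against control among all members with miR-23a at 1.88 ± 0.56 (adjusted p = 0.133 in edgeR) and stood at 1.69 ± 0.55 with miR-27a (adjusted p = 0.0933). Its mean was 7.58 ± 5.42 CPM (SD, n = 3) in control without replicate 1, where it had no read, and 23.6 ± 11.9 and 22.5 ± 13.1 CPM (n = 4) with these mimics, and the libraries overlap. Ikbip, a p53 target that promotes cell death, was lower in all miR-27a libraries than in all controls, with means of 7.40 ± 3.37 and 19.5 ± 9.33 CPM (adjusted p = 0.147). Apaf1, the scaffold of the apoptosome, had means of 217 to 279 CPM, Perp, a membrane protein, 25.7 to 36.2 CPM, and Pmaip1, also called Noxa, 38.6 to 53.9 CPM. Dram1 had means of 0.341 to 0.678 CPM.

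The death receptors Fas and Eda2r held 5 of the 12 calls in the 6 comparisons. Fas, the receptor of Fas ligand, rose with miR-24 (19:34290666-34327772). It stood at 0, 22.0, 22.1 and 18.7 CPM in control and at 30.4, 35.9, 44.9 and 32.5 CPM with miR-24. Every miR-24 library lay above every control, also without control replicate 1, which had no Fas read, and Fas was the 1 member higher in this way, where 4.04% of all genes were. The log2 fold change was 0.98 ± 0.26 (adjusted p = 0.0370 in edgeR, 0.241 without the block). The call was lost without control replicate 2, 3 or 4, miR-23a replicate 4, miR-24 replicate 2, 3 or 4, or miR-27a replicate 2, with adjusted p between 0.0518 and 0.160. It was also lost in limma with sample weights, where Ccng1 was the 1 member called, and in the fit of only the libraries of both groups, where Cdkn1a was.

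Fas stood at 14.4, 29.4, 23.7 and 23.9 CPM with miR-23a and at 10.0, 17.4, 26.7 and 16.4 CPM with miR-27a. Both overlap control, with log2 fold changes of 0.30 (adjusted p = 0.557 in edgeR) and -0.09 (adjusted p = 0.880). Every miR-27a library lay below every miR-24 library, as for 3.92% of all genes, and Fas fell by 1.07 ± 0.24 on the log2 scale with miR-27a relative to miR-24 (adjusted p = 0.0149, 0.136 without the block). That call was lost without miR-24 replicate 3 or miR-27a replicate 1 or 2, with adjusted p between 0.0650 and 0.0766. The 4-group adjusted p of Fas was 0.0175 (0.182 without the block), and 0.0840 without miR-24 replicate 3. The full miR-23a site printed above lies in its 3′ UTR of 448 bases, which holds no site of miR-24 or miR-27a.

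Eda2r, a receptor of the ectodysplasin splice form EDA-A2 and a p53 target in other tissues, rose with miR-27a against each of the other groups (X:97333840-97377216). It stood at 0, 1.27, 4.86 and 6.10 CPM in control and at 6.77, 3.76, 36.4 and 26.9 CPM with miR-27a. With miR-23a it stood at 2.06, 2.96, 8.18 and 12.8 CPM and with miR-24 at 3.17, 0.576, 7.73 and 9.14 CPM. The ranges of the groups overlap, and within each of the 4 replicate numbers the miR-27a library was the highest of the 4 groups.

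The log2 fold change of Eda2r with miR-27a was 2.29 ± 0.42 against control (adjusted p = 0.00643 in edgeR, 0.268 without the block), 1.42 ± 0.37 against miR-23a (0.0403, 0.527 without the block) and 1.84 ± 0.36 against miR-24 (0.00699, 0.318 without the block). Against control the call was lost without control replicate 3 or miR-27a replicate 3 (0.0705 and 0.0834). Against miR-24 it was lost without miR-27a replicate 3 (0.0682). Against miR-23a it was lost in 9 of 16 fits, without control replicate 1, miR-23a replicate 1, 3 or 4, miR-24 replicate 3 or any miR-27a library (0.0544 to 0.288). Over the 4 groups Eda2r had the lowest adjusted p of the members at 0.00254 (0.271 without the block) and kept the call in 16 of 16 fits that left out 1 library. Tnfrsf10b, a receptor of the death ligand TRAIL, had means of 56.4 to 81.2 CPM and passed no test between groups in the edgeR fit of all libraries. DESeq2 with the block called Tnfrsf10b for miR-24 against control and miR-27a against miR-24.

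No gene of DNA repair or nucleotide supply passed a test between groups in the edgeR fit of all libraries. With only the libraries of both groups, edgeR called Xpc for miR-27a against control. DESeq2 with the block called Xpc (miR-27a against control and against miR-23a) and Ercc5 (miR-24 against miR-23a), and limma with sample weights called Xpc for miR-27a against miR-23a. The damage sensor Xpc, with means of 9.88 ± 1.99 CPM with miR-27a and 21.7 ± 8.73 CPM in control (18.0 ± 5.92 without replicate 1, n = 3), was lower in all miR-27a libraries than in all controls. Its log2 fold change was -0.91 ± 0.28 (adjusted p = 0.0777 in edgeR). Xpc, Ccng1 and Ikbip were the 3 members lower in this way with miR-27a, where 2.21% of all genes were, and Cdkn1a was the 1 member higher in all libraries, where 4.26% were. Ddb2, which finds ultraviolet lesions, the nuclease Ercc5, the polymerase Polk and the ribonucleotide reductase subunit Rrm2b had log2 fold changes of -0.58, -0.04, 0.30 and -0.56 with miR-27a. For the 5 genes the median was -0.56 with miR-27a, -0.39 with miR-24 and -0.05 with miR-23a.

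Among the stress and nutrient genes, Slc19a2, a thiamine transporter, was lower with miR-24 than with miR-23a or miR-27a. It stood at 34.3, 29.9, 78.3 and 57.8 CPM with miR-24, at 65.8, 76.5, 116 and 105 CPM with miR-23a and at 66.5, 71.9, 162 and 74.5 CPM with miR-27a. The ranges overlap through miR-24 replicate 3, and the control libraries stood at 48.8, 56.2, 86.6 and 37.8 CPM. Slc19a2 fell with miR-24 relative to miR-23a by 0.92 ± 0.22 on the log2 scale (adjusted p = 0.0171 in edgeR, 0.303 without the block). It rose with miR-27a relative to miR-24 by 0.90 ± 0.22 (adjusted p = 0.0236, 0.255 without the block). Against control the log2 fold change of Slc19a2 was -0.18 with miR-24 (adjusted p = 0.716 in edgeR), nearer 0 than with the other mimics. It was 0.74 with miR-23a (0.150) and 0.71 with miR-27a (0.0945). DESeq2 with the block, and edgeR with only the libraries of both groups, called Slc19a2 for miR-27a against control.

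The first of these Slc19a2 calls was lost without miR-23a replicate 4 or miR-24 replicate 2 or 3 (adjusted p 0.0598 to 0.0995). The other was lost without miR-24 replicate 2 or 3 or miR-27a replicate 1, 2 or 3 (0.0715 to 0.127). The 4-group call (adjusted p = 0.0137 in edgeR, 0.285 without the block) was kept in 16 of 16 fits that left out 1 library. Sesn1 and Sesn2, which restrain the kinase mTORC1 when nutrients are short, and Ddit4, another mTORC1 inhibitor, passed no test between groups in the edgeR fit of all libraries, with log2 fold changes against control of -0.60 to -0.05 for Sesn1, 0.74 to 1.27 for Sesn2 and 0.58 to 1.06 for Ddit4. With only the libraries of both groups, Sesn2 and Ddit4 were called for miR-27a against control.

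Several members differed among the replicate numbers in the fit that also held the mimic group. Whether these differences vary between mimics was not tested. In a test added after seeing the data, 7 of 30 members differed among the 4 replicate numbers, where 13.7% of all genes did (edgeR, adjusted over all genes). The mean level of Eda2r over the groups was 3.00, 2.14, 14.3 and 13.7 CPM for numbers 1 to 4 (adjusted p = 0.000136). Perp stood at 15.5, 16.3, 45.1 and 49.3 CPM (adjusted p = 0.00304 in edgeR), and for both genes the libraries numbered 3 and 4 lay above those numbered 1 and 2 in 4 of 4 groups.

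Pmaip1 stood at 28.9, 26.9, 73.6 and 53.1 CPM by number (adjusted p = 0.000431 in edgeR), and Slc19a2 at 53.8, 58.6, 111 and 68.7 CPM (adjusted p = 0.00666). Plk2, Plk3 and Tnfrsf10b passed as well (adjusted p = 0.00827, 0.0181 and 0.0305 in edgeR). Numbers 3 and 4 lay above 1 and 2 in 3 of 4 groups for Pmaip1, Slc19a2 and Tnfrsf10b, and in 2 of 4 for Plk2 and Plk3. The labels do not say what the number stands for. Control replicate 1 belongs to number 1, and Eda2r, Plk2 and Plk3 had 0 reads in it.

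**Figure D3:**
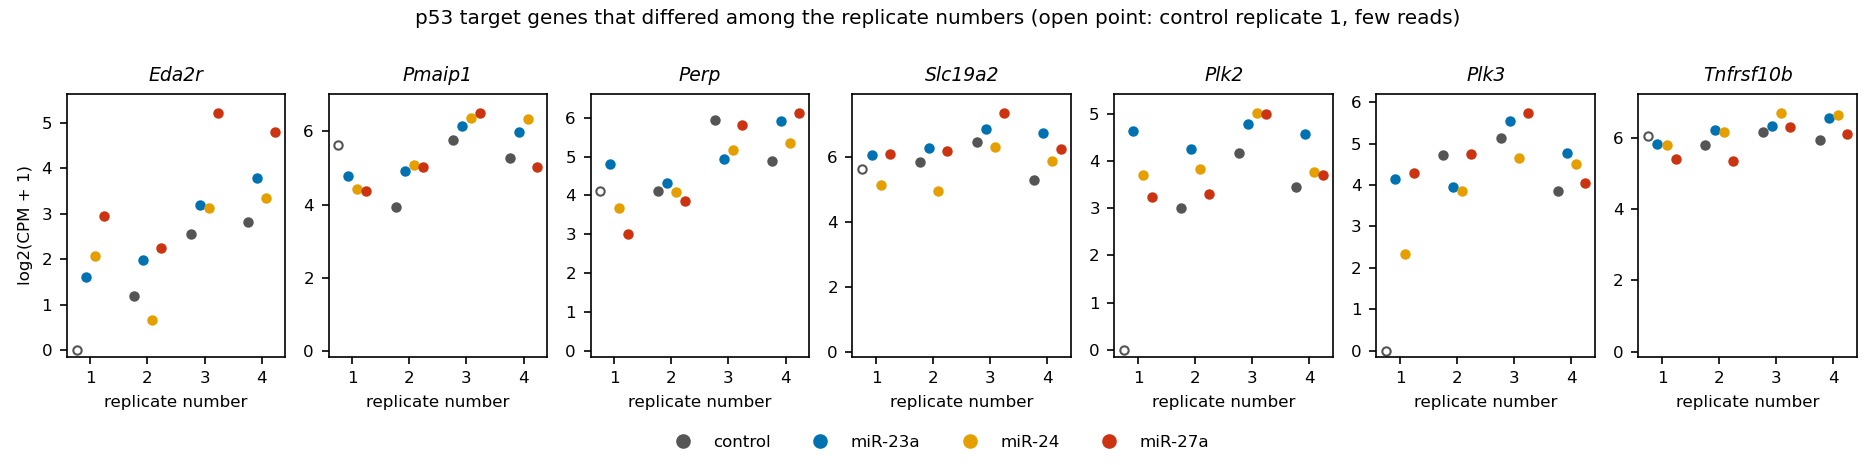
Level of the 7 members that differed among replicate numbers, as log2(CPM + 1) on the vertical axis against the replicate number, coloured by mimic; the open point is control replicate 1. Eda2r and Perp lie higher at numbers 3 and 4 than at numbers 1 and 2 within each mimic.

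Outside the members, Trp53 and Mdm4 passed no test between groups in edgeR. Trp53, the gene of p53, had a mean of 159 ± 41.8 CPM in control, and means of 200.1 ± 23.0 CPM (miR-23a), 251 ± 63.5 CPM (miR-24) and 227 ± 30.03 CPM (miR-27a) under the mimics (SD, n = 4). Its log2 fold changes against control were 0.41, 0.73 and 0.59 (adjusted p = 0.367, 0.0772 and 0.153 in edgeR). Mdm4, the partner of Mdm2 in holding p53 down, had log2 fold changes of -0.07, -0.04 and 0.00. These counts measure messenger RNA, and p53 is controlled largely as a protein.

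Among 20 genes of p53 and its regulators, 19 were tested. With miR-24 against control 1 rose and 2 fell, Cdkn2a, Hipk2 and Sirt1, with miR-27a 1 fell, Hipk2, and with miR-23a 0 passed. In the same order, 4.56%, 3.07% and 0.425% of all genes were called. Hipk2, a kinase that activates p53, fell from 525 ± 23.2 CPM in control to 254 ± 40.1 with miR-24 and 245 ± 95.8 with miR-27a, log2 fold changes of -1.08 ± 0.23 and -1.14 ± 0.24 (adjusted p = 0.0146 and 0.0149 in edgeR, 0.0591 and 0.0759 without the block). Cdkn2a, whose locus encodes the Mdm2 inhibitor Arf, rose from 0.282 to 3.38 CPM with miR-24, from 0 to 6 reads a library to 14 to 87 (adjusted p = 0.0440, 0.137 without the block). Sirt1, a deacetylase of p53, fell by 0.89 ± 0.22 on the log2 scale (adjusted p = 0.0253, 0.0644 without the block).

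Between mimics, Atm and Cdkn2a rose with miR-24 relative to miR-23a, by 0.72 and 3.41 on the log2 scale (adjusted p = 0.0413 and 0.00956 in edgeR). Without the block Atm lost its call (0.169) and Cdkn2a kept it (0.0446). Cdkn2a rose with miR-27a relative to miR-23a, by 2.95 (adjusted p = 0.0393 in edgeR, 0.117 without the block). The p53 ubiquitin ligase Rchy1 fell with miR-27a relative to miR-24, by 0.95 (0.0305, 0.101 without the block). Of all genes, 5.38%, 2.95% and 4.42% were called in these comparisons, in the same order.

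Of 14 other reported p53 targets, 12 were tested. Of all genes, 4.56%, 3.07% and 0.425% were called with miR-24, miR-27a and miR-23a against control. The share was 5.38% for miR-24 against miR-23a and 4.42% for miR-27a against miR-24. Pml, a nuclear body protein, rose with miR-24 against control by 0.81 ± 0.18 on the log2 scale (adjusted p = 0.0177 in edgeR, 0.163 without the block) and relative to miR-23a by 0.73 (0.0149, 0.125 without the block). Psrc1 and Gtse1, both spindle or microtubule proteins, rose with miR-27a against control by 0.78 and 0.98 (adjusted p = 0.0281 and 0.0496, 0.112 and 0.141 without the block). Ckap2, another spindle protein, rose with miR-27a relative to miR-24 by 0.94 (adjusted p = 0.0473, 0.161 without the block), and 0 of the 12 passed with miR-23a against control.

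The 12 genes known to fall when p53 is active, mostly of the G2 and M phases, were all tested. Ccnb1, the mitotic cyclin B1, rose with miR-27a from 94.1 ± 8.95 to 204 ± 45.4 CPM, a log2 fold change of 1.23 ± 0.23 (adjusted p = 0.00665 in edgeR, 0.0691 without the block). Ccna2, cyclin A2, rose with miR-27a relative to miR-23a by 0.65 (adjusted p = 0.0464, 0.257 without the block). No other gene of this list passed in any comparison. Of all genes, 3.07% were called with miR-27a against control and 2.95% relative to miR-23a. Their median log2 fold change with miR-27a was 0.15 against control with 9 of 12 above 0, 0.42 relative to miR-23a with 12 of 12 above 0, and 0.25 relative to miR-24 with 12 of 12 above 0. In the miR-27a libraries Cdkn1a and Ccnb1 were thus both higher than in control.

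Sites of the mimics were then counted in the longest annotated 3′ UTR of each member. Full 8-base sites of miR-27a were found in 6 of 31 members, Bbc3, Btg2, Ccng1, Plk2, Sesn2 and Zmat3, which is 19.35%, against 6.659% of the tested genes with an annotated 3′ UTR. For miR-23a they were found in 4 (Ccng1, Fas, Sesn2 and Zmat3; 12.9% against 7.358%) and for miR-24 in 2 (Eda2r and Polk; 6.452% against 8.955%). Sites of 7 or 8 bases were held by 58.06%, 41.94% and 35.48% of members for miR-27a, miR-23a and miR-24, against 30%, 25.51% and 27.06% of genes. The median 3′ UTR was 1335 bases in members and 1247.5 in all these genes.

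With miR-27a the 6 members with a full site had a median log2 fold change of -0.28 against control, with 4 of 6 below 0. Ccng1 is the 1 of them that passed the test, and Sesn2 stood at 1.27 and Plk2, which holds 2 full sites, at 0.47. The 12 members with only 7-base sites had a median of 0.48 and the 12 without a site 0.31. With miR-23a the medians were 0.34 (n = 4), 0.30 (n = 9) and 0.51 (n = 17), and with miR-24 they were 0.24 (n = 2), -0.24 (n = 9) and 0.10 (n = 19). The members called higher with a mimic against control held no full site of it: Cdkn1a and Eda2r hold only 7-base sites of miR-27a, and Fas holds none of miR-24. Few of the 30 tested members hold a full site, 6 for miR-27a and 2 for miR-24, so no conclusion is drawn from this.

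**Figure D4:**
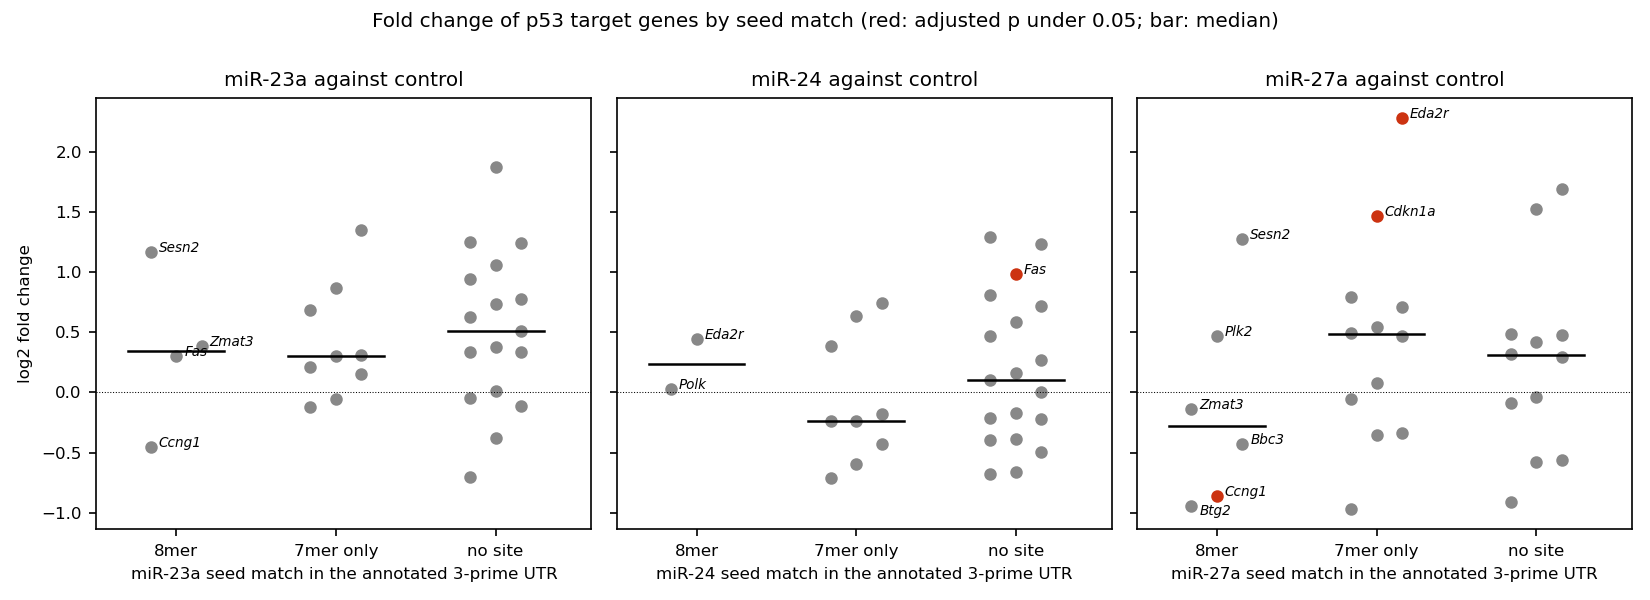
Log2 fold change against control (vertical axis) of the 30 tested members for each mimic, by whether the annotated 3′ UTR holds a full 8-base site, only 7-base sites or no site of that mimic; bars are medians and red points passed an adjusted p of 0.05. The miR-27a members with a full site have a median of -0.28, those with only 7-base sites 0.48 and those with none 0.31.

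The promoters of members were searched for the p53 consensus, a pair of 10-base elements separated by 0 to 13 bases, on both strands of the RefSeq window from 250 bases before to 50 after the start (GRCm38.p6). A promoter was given for 23 of the 31 members. Only Cdkn1a held an exact match, with 12 bases between its elements, 73 bases before the start (chr17:29090906-29090937), which is 4.35% of members against 0.074% of 27025 promoters. With 1 mismatch allowed, a setting added after seeing the data, Ccng1 was found as well (chr11:40755462-40755481, minus strand, 195 bases before the start), and 8.7% of members compared with 0.718% of promoters held a match. The Ccng1 match is printed because Ccng1 had the highest level per kilobase of the members, with the match in capitals.
Ccng1: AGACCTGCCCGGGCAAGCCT
With 2 mismatches the share was 21.7% of members against 4.71% of promoters, with Gadd45a, Bax and Sesn1 added. Of the 2 members with the closest matches, Cdkn1a was called higher and Ccng1 lower with miR-27a against control. Eda2r, the other member called in that comparison (log2 fold change 2.29), was not among the members with a match. Whether the matches bear on these changes was not tested.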

How the data were processed

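Per the labels' protocols, small amounts of RNA were amplified (NuGEN Ovation V2) and sequenced as single reads. The authors deposited 1 table of raw read counts per library, for 23337 gene symbols and 5 summary lines, which held 64.6% to 77.6% of all reads and were left out. Bowtie2, TopHat and DESeq were used with the mm10 build, per the submitters' processing notes; the counter, annotation and strand setting are not given in the sources used here.

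Genes passing filterByExpr (12952) were fitted in edgeR 4.0.16 (R 4.3.3) over all 16 libraries with TMM scaling, group and replicate number as terms and the robust quasi-likelihood test, two-sided, adjusted by Benjamini-Hochberg at 0.05. The fit was tested on simulated data. The biological coefficient of variation was 0.290 with and 0.389 without the block. Same-numbered libraries deviated together (every correlation over 0.1, over 4746 genes) for control and miR-27a (0.198 to 0.611), miR-23a and miR-24 (0.350 to 0.671) and miR-23a and miR-27a (0.257 to 0.655). For the other pairs of groups 3 of 4 correlations passed, so by the rule these groups did not count as paired. Their correlations ranged from -0.12 to 0.332 for miR-23a and control and 0.0304 to 0.460 for miR-24 and control. For miR-27a and miR-24 the range was -0.0072 to 0.727.

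CPM use TMM-scaled library sizes. A SE is the absolute log2 fold change over the root of F. The members and lists were chosen with earlier results of these data known. Values per library are given for every member that passed a test and for Cdkn1a, Mdm2, Ccng1, Bax, Bbc3, Fas and Aen. Of the other lists, Trp53, Mdm4 and up to 5 passing genes per list and comparison are named. The 3′ UTRs come from GENCODE M21. Annotated genes overlap Cdkn1a, Gadd45a, Plk3, Bax, Ei24, Ddb2 and Rrm2b, whose reads may be shared. Alternatives were no block, DESeq2 1.42.0 (size factors, and its own test), no filter, limma 3.58.1 with sample weights, only the libraries of both groups, Rn45s left out and each library left out. Leaving out all libraries numbered 1, and dropping control replicate 1 without the block, were added after seeing the data.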

Additional observations from a re-analysis of the deposited data

Results flagged for a closer look

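In 7 of 124 sets of 4 libraries (31 genes in 4 groups), 1 library stood far from the other 3, with its gap to the nearest above Dixon's critical share of the set's range. Chance gives about 1 in 20 sets, so this number is near what chance gives. In 2 sets the library was control replicate 1, where Apaf1 stood at 163 CPM (10 reads) with the others at 293 to 317, and Fas at 0 with the others at 18.7 to 22.1. Replicate 3 stood high for Plk2 at 31.5 CPM with miR-24 (others 12.03 to 13.2) and at 30.8 CPM with miR-27a (others 8.39 to 12.1), and for Slc19a2 at 162 CPM with miR-27a (others 66.5 to 74.5). Bbc3 stood at 29.7 CPM in miR-23a replicate 1 (others 4.33 to 5.27). Dram1 stood at 1.27 CPM, 13 reads, in control replicate 2 (others 0 to 0.0901).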

How the results depend on the processing

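No direction of a called member reversed in any fit, and the size factors of DESeq2 or leaving out Rn45s kept every member call. Counts follow the order any difference among the 4 groups, miR-23a, miR-24 and miR-27a against control, miR-24 against miR-23a, miR-27a against miR-23a, miR-27a against miR-24. With the replicate block, 8, 0, 1, 3, 3, 2 and 3 members and 1254, 55, 591, 398, 697, 382 and 572 genes passed. Without the replicate block, 0 members passed in each, and 251, 17, 110, 22, 142, 71 and 114 genes; with control replicate 1 dropped as well, 0 members and 244, 15, 106, 29, 147, 70 and 138 genes. DESeq2 with the block called 14, 5, 5, 6, 7, 5 and 5 members and 2323, 364, 1029, 951, 1060, 713 and 999 genes. With limma sample weights, members passing numbered 2 over the 4 groups and 4 for miR-27a against miR-23a, and genes 641 over the 4 groups, 32 for miR-23a, 458 for miR-24 against miR-23a and 991 for miR-27a against miR-24. Without the filter, 1 member passed with miR-23a (Aen), Cdkn1a lost its call with miR-27a, and Ei24 took the place of Zmat3 for miR-24 against miR-23a. With only the libraries of both groups, 11 members and 1883 genes passed with miR-27a, 1 and 148 for miR-27a against miR-24, and 34 genes with miR-23a. Without the libraries numbered 1, members passing were 2 over the 4 groups, 4 with miR-24, 0 for miR-24 or miR-27a against miR-23a and 1 for miR-27a against miR-24, and genes 1141 with miR-24, 339 for miR-24 against miR-23a and 235 for miR-27a against miR-23a. Leaving out 1 library at a time gave 3 to 12, 0 to 3, 0 to 4, 0 to 5, 0 to 5, 0 to 2 and 1 to 4 members, and 584 to 1780, 12 to 334, 123 to 1490, 51 to 1010, 262 to 796, 127 to 548 and 190 to 737 genes. The members' median log2 fold change then ranged from 0.31 to 0.45, -0.04 to 0.14, 0.19 to 0.38, -0.52 to -0.26, -0.38 to -0.16 and -0.013 to 0.27 in the 6 comparisons. The cause of these shifts was not tested. Depth limits control replicate 1, where 3 reads are 48.8 CPM.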
